A study of Mus musculus with 6 samples.

Results

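Ttr, Apob, Apoe, Apom, Apoa1, Afp, Spink3 and Mttp encode proteins that endoderm secretes, or that it needs to secrete lipoproteins. These 8 genes were taken by symbol from a deposited table of 38561 genes, each matching 1 row, and were kept whatever their read number. Their levels were compared between 3 fractions sorted from undifferentiated embryonic stem cell (ESC) cultures. The ESCs are mouse cells (strain 129X1/SvJ x 129S1/Sv), used at passages 13 to 17 and grown without feeder cells, with leukemia inhibitory factor and serum replacement. The sort used PECAM1, an adhesion protein of undifferentiated ESCs, and PDGFRa, a growth factor receptor carried by primitive endoderm. The fractions are named PDGFRa-only (PECAM1minPDGFRaplus), double-positive (PECAM1plusPDGFRaplus) and PECAM1-only (PECAM1plusPDGFRamin), with 2 libraries each, made from 100000 sorted events and amplified RNA. The labels do not say whether the 2 libraries of a fraction come from separate cultures, so every p measures the spread between these libraries alone, which may be technical.

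Visceral endoderm is the layer of primitive endoderm that covers the early mouse embryo and feeds it before the placenta works. It does for the embryo much of what liver does later: it takes up maternal proteins through cubilin and megalin, and it secretes carriers and lipoproteins. Lipoprotein assembly begins when the microsomal triglyceride transfer protein, the product of Mttp, loads lipid onto apolipoprotein B as that protein enters the endoplasmic reticulum. Smaller apolipoproteins, among them those of Apoa1, Apoe and Apom, sit on the surface of the particles and steer their exchange and uptake. Transthyretin (Ttr) carries thyroid hormone and the retinol-binding protein, alpha-fetoprotein (Afp) is the main fetal serum protein, and Spink3 encodes a secreted trypsin inhibitor.

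The libraries held 4809661 to 7273669 counts, and 13909 genes passed the filter on low counts (edgeR's filterByExpr with a minimum count of 10). Levels are given as CPM, each count relative to its TMM-scaled library size. Pdgfra had 557 ± 68.2 CPM in the PDGFRa-only and 535 ± 24.1 CPM in the double-positive fraction, against 1.96 ± 0.111 CPM in PECAM1-only cells (SD, n = 2). Pecam1 ran the other way, with 1.54 ± 0.0430, 49.4 ± 6.30 and 154 ± 16.3 CPM in that order. Summed over 8 visceral endoderm markers, levels ranged from 11020 to 13430 CPM in the PDGFRa-only, 8843 to 9629 CPM in the double-positive libraries, and 237 to 274 CPM in the PECAM1-only libraries. Vil1, a marker of the absorptive surface, stayed at 2.48 ± 1.58 CPM in the PDGFRa-only fraction against 2.73 ± 0.571 CPM in the PECAM1-only fraction. Summed over 8 parietal endoderm markers, the other derivative of primitive endoderm, levels followed the same order, with 23490 to 24950, 15260 to 16430 and 344 to 366 CPM. The 6 anterior visceral endoderm markers summed to 46.7 to 48.9, 65.4 to 72.9 and 97.4 to 125 CPM in that order. Otx2, which ESCs also express, set that order with 0.490 ± 0.375, 27.4 ± 9.98 and 98.5 ± 20.7 CPM. Lefty1 had the same order at lower levels (0.529 ± 0.748, 3.37 ± 1.21 and 5.21 ± 0.0466 CPM). Dkk1 (31.9 ± 1.27, 28.0 ± 0.887 and 0.0784 ± 0.111 CPM) and Hhex (14.9 ± 3.995, 10.3 ± 2.62 and 7.34 ± 0.492 CPM) had the opposite order, and Cer1 and Gsc had 0 counts in the PDGFRa-only and double-positive libraries. The 5 ESC markers summed to 107 to 149 CPM in the PDGFRa-only, 282 to 357 CPM in the double-positive libraries, and 880 to 906 CPM in the PECAM1-only libraries. In such bulk libraries, fewer cells of a type and less RNA per cell cannot be told apart.

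Other cell types can also express these genes. The 7 hepatocyte markers summed to 8.46 to 10.1 CPM in the PDGFRa-only, 13.5 to 17.3 CPM in the double-positive libraries, and 22.9 to 27.1 CPM in the PECAM1-only libraries, where Ass1 made up most of the sum. Alb, Tat and Cyp2e1 had 0 counts in the PDGFRa-only and double-positive libraries, and Fgb had 6.91 ± 1.02 CPM and 3.77 ± 2.90 CPM there. Macrophages are rich in Apoe in the adult. Of 7 macrophage markers 6 were in the table. Ptprc had 0 counts in all 6 libraries, and Lyz2 had 1 count in the PDGFRa-only and 1 in the double-positive fraction. Csf1r, the macrophage growth factor receptor gene, had the same order as Apoe, with 5.87 ± 0.677, 3.76 ± 1.54 and 0.448 ± 0.190 CPM. The macrophage list summed to 34.1 to 36.1, 20.9 to 29.7 and 8.78 to 10.8 CPM in the PDGFRa-only, double-positive and PECAM1-only libraries, mostly from the lysosomal gene Cd68 (29.2 ± 0.618 CPM in the PDGFRa-only fraction). Endothelial markers summed to 74.5 to 125, 57.7 to 73.0 and 0.582 to 0.627 CPM, carried by Cdh5 and Kdr, while Emcn and Erg had 0 counts in all 6 libraries. The 7 fibroblast markers reached at most 6.10 CPM and the 5 trophoblast markers at most 4.23 CPM in any library. The part of any of these cell types in the results was not tested.

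Of the 8 genes, 6 passed the filter. In the PDGFRa-only fraction 5 of these were higher than in the PECAM1-only fraction and none was lower, where 30.1% of all tested genes were called higher, 28.8% lower and 59.0% either way (edgeR quasi-likelihood test, Benjamini-Hochberg adjusted p below 0.05). In the double-positive fraction 6 were higher than in the PECAM1-only fraction, where 21.8% of all tested genes were called higher, 16.4% lower and 38.2% either way. Between PDGFRa-only and double-positive cells 1 was higher in the PDGFRa-only fraction, Spink3, where 5.94% of all genes were called higher, 11.7% lower and 17.6% either way. The median log2 fold change of the 6 was 3.65, 3.09 and 0.56 in the 3 comparisons, against 0.0059, -0.0082 and -7.3e-05 for all tested genes. A gene can pass the filter through the fraction in which it is abundant, which favours a difference without fixing it, as Apob shows. These counts therefore describe the 6 genes and support nothing about the group. The 3 comparisons share libraries.

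**Figure D1:**
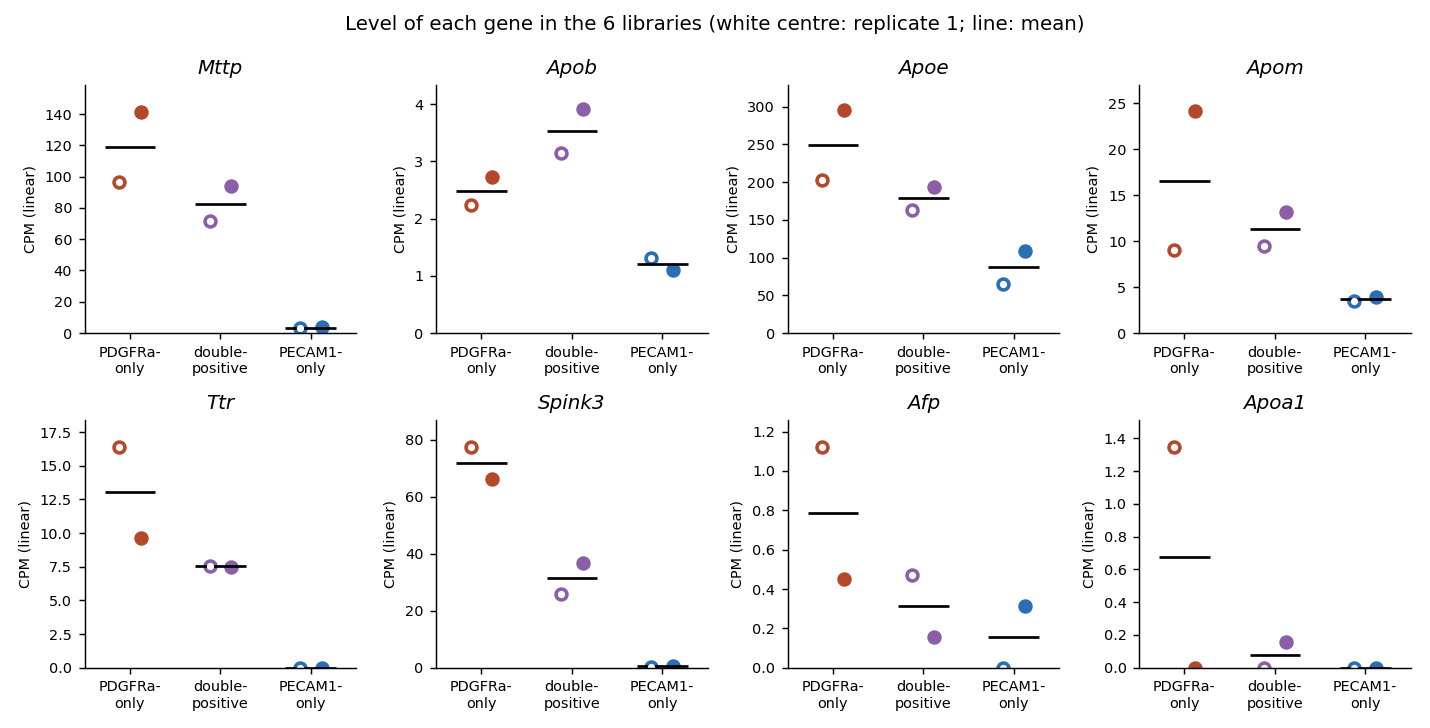
Normalised read count (CPM, linear axis) of each gene in the 6 libraries, by sorted fraction. Points are libraries (white centre: replicate 1) and lines are means of 2; Mttp falls from 141 and 96.8 CPM in the PDGFRa-only libraries to 3.92 and 3.06 CPM in the PECAM1-only libraries, whereas Apob stays below 4 CPM throughout and Afp and Apoa1 rest on 14 and 7 counts in all.

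Mttp, which carries out the lipid-loading step, was high in both PDGFRa-positive fractions. Its libraries held 96.8 and 141 CPM in the PDGFRa-only fraction, 71.4 and 94.0 CPM in the double-positive fraction, and 3.06 and 3.92 CPM in the PECAM1-only fraction. The PDGFRa-only libraries were the highest and the PECAM1-only libraries the lowest, with no overlap between fractions. Mttp was 34.2-fold higher in PDGFRa-only than in PECAM1-only cells (log2 fold change 5.10, SE 0.27, edgeR adjusted p = 1.13e-12) and 23.7-fold higher in double-positive than in PECAM1-only cells (4.57, SE 0.27, adjusted p = 1.47e-11). The step from double-positive to PDGFRa-only was 0.53 (SE 0.20, edgeR adjusted p = 0.0648), and it passed when replicate number was added to the fit. It also passed when no count filter was applied (0.52, adjusted p = 0.0386), and missed the threshold with DESeq2 (0.56, adjusted p = 0.108). With each library left out in turn it ranged from 0.22 (without PDGFRa-only replicate 2) to 0.78 (without PDGFRa-only replicate 1). Mttp (GRCm38 chromosome 3, 138089854 to 138144968, minus strand) overlaps Trmt10a, a tRNA methyltransferase gene on the opposite strand, and whether the counting used strand is not given in the sources used here. Trmt10a ran the other way, at 22.7 and 29.3 CPM in the PDGFRa-only and 48.0 and 43.6 CPM in the PECAM1-only libraries.

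Apob, which encodes the structural protein that Mttp loads, was low, with 89 counts over all 6 libraries. It had 10 and 18 counts in the PDGFRa-only libraries, 20 and 25 in the double-positive libraries and 9 and 7 in the PECAM1-only libraries, or 2.25 and 2.72, 3.15 and 3.91, and 1.31 and 1.10 CPM. The double-positive libraries were the highest, and no fractions overlapped. Double-positive cells exceeded PECAM1-only cells 2.89-fold (log2 fold change 1.53, SE 0.48, edgeR adjusted p = 0.0150). That call was lost without PECAM1-only replicate 1 (adjusted p = 0.0645) or 2 (0.0948), without double-positive replicate 2 (0.131), with DESeq2 (0.129) and with limma on the authors' RPKM (0.272 and 0.123 at pseudocounts of 1 and 0.1). Between PDGFRa-only and PECAM1-only cells the log2 fold change was 1.05 (SE 0.51, edgeR adjusted p = 0.0860), and between PDGFRa-only and double-positive cells -0.49 (SE 0.44, adjusted p = 0.490). Apob lies on chromosome 12, 7977648 to 8016835, and has 13934 annotated exonic bases, so its level per kilobase was lower still. In the PDGFRa-only fraction it was 0.178 ± 0.0241 CPM per kilobase, against 19.2 ± 5.09 CPM per kilobase for Mttp (SD, n = 2).

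Apoe, a ligand of the LDL receptor family, had the highest mean level per kilobase of the 8 genes in all 3 fractions. It had 202 and 296 CPM in the PDGFRa-only libraries, 163 and 194 CPM in the double-positive libraries and 64.8 and 109 CPM in the PECAM1-only libraries. The fractions did not overlap, and the higher PECAM1-only library lay below both double-positive libraries. Apoe was 2.87-fold higher in PDGFRa-only than in PECAM1-only cells (log2 fold change 1.52, SE 0.22, edgeR adjusted p = 9.05e-06) and 2.06-fold higher in double-positive cells (1.04, SE 0.22, adjusted p = 0.000950). Between PDGFRa-only and double-positive cells it differed by 0.48 (SE 0.21, edgeR adjusted p = 0.131), by 0.73 without PDGFRa-only replicate 1 and by 0.18 without PDGFRa-only replicate 2. This step passed in edgeR with no count filter (adjusted p = 0.0478) and when replicate number was added to the fit (adjusted p = 0.0425). The fit with no count filter also gave Apoe a far smaller adjusted p between PDGFRa-only and PECAM1-only cells (3.87e-18) than the main fit. On the authors' RPKM the double-positive difference from PECAM1-only cells missed the threshold (adjusted p = 0.0702 and 0.0700 in limma at pseudocounts of 1 and 0.1). The gene lies on chromosome 7, 19696109 to 19699188. Its neighbour Apoc1 (19689481 to 19692660), which encodes a small apolipoprotein of the same particles, rose with it, while Apoc2 and Apoc4 of that cluster had 4 and 0 counts over all libraries.

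Apom encodes the carrier of sphingosine 1-phosphate on high-density lipoproteins (chromosome 17, 35128997 to 35132050). Its libraries held 8.98 and 24.2 CPM in the PDGFRa-only fraction, 9.44 and 13.1 CPM in the double-positive fraction and 3.49 and 3.92 CPM in the PECAM1-only fraction. Both PDGFRa-positive fractions stood above the PECAM1-only libraries and overlapped each other, since PDGFRa-only replicate 1 lay below both double-positive libraries. Apom rose 4.59-fold from PECAM1-only to PDGFRa-only cells (log2 fold change 2.20, SE 0.38, edgeR adjusted p = 6.85e-05), a value of 1.28 without PDGFRa-only replicate 2 and 2.72 without replicate 1. It rose 3.04-fold from PECAM1-only to double-positive cells (1.60, SE 0.39, edgeR adjusted p = 0.00317). Between PDGFRa-only and double-positive cells the log2 fold change was 0.59 (SE 0.34, edgeR adjusted p = 0.245), and PDGFRa-only replicate 2 set its sign: it was -0.33 without that library and 1.10 (adjusted p = 0.00297) without replicate 1.

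Ttr (chromosome 18, 20665280 to 20674321) had 73 and 64 counts in the PDGFRa-only libraries, 48 and 48 in the double-positive libraries and 0 in both PECAM1-only libraries, or 16.4 and 9.67, 7.55 and 7.51, and 0 CPM. The PDGFRa-only libraries were the highest, and the 0 counts in 2 PECAM1-only libraries were set to a floor of 0.227 CPM (3 counts over the fraction). The exact 95% Poisson upper limit for these 0 counts was 0.2785 CPM. Against the floor the mean of Ttr was 57.5-fold higher in PDGFRa-only cells (edgeR adjusted p = 5.66e-09) and 33.3-fold higher in double-positive cells (adjusted p = 1.70e-07). These ratios leave out the error of the higher mean, so they are not strict lower limits. Between these fractions the log2 fold change was 0.76 (SE 0.32, edgeR adjusted p = 0.101). It was 1.12 without PDGFRa-only replicate 2 and 0.37 without PDGFRa-only replicate 1.

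Spink3, named Spink1 in GENCODE M21 (chromosome 18, 43728082 to 43737557), differed between all 3 fractions. It had 77.5 and 66.0 CPM in the PDGFRa-only libraries, 26.0 and 36.8 CPM in the double-positive libraries, and 0.437 and 0.784 CPM, from 3 and 5 counts, in the PECAM1-only libraries. No fractions overlapped. It was 115-fold higher in PDGFRa-only than in PECAM1-only cells (log2 fold change 6.84, SE 0.34, edgeR adjusted p = 5.47e-13), 50.3-fold higher in double-positive than in PECAM1-only cells (5.65, SE 0.36, adjusted p = 5.12e-11) and 2.28-fold higher in PDGFRa-only than in double-positive cells (1.19, SE 0.20, adjusted p = 0.000307). The last step kept its call under every alternative on the counts, and lost it on the authors' RPKM at a pseudocount of 0.1 (adjusted p = 0.0753).

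Afp and Apoa1, classical products of mature visceral endoderm, were too low for the main test. Afp (chromosome 5, 90490737 to 90508907) had 5 and 3 counts in the PDGFRa-only libraries, 3 and 1 in the double-positive and 0 and 2 in the PECAM1-only libraries. The pooled level in the PDGFRa-only fraction was 0.722 CPM (exact 95% Poisson interval 0.312 to 1.42), and the ratio to the PECAM1-only fraction was 4.78 with an exact interval of 0.955 to 46.3. With no count filter edgeR gave an adjusted p of 0.161, and limma on the authors' RPKM, a table without any value of 0, gave 0.0176 and 0.0192 at pseudocounts of 1 and 0.1. Apoa1 (chromosome 9, 46228580 to 46230466), the main protein of high-density lipoproteins, had 6 counts in PDGFRa-only replicate 1, 0 in replicate 2, 1 in double-positive replicate 2 and 0 in the other libraries. All its PDGFRa-only reads thus came from 1 library, and with no count filter edgeR gave an adjusted p of 0.0520 against the PECAM1-only fraction. For the same comparison limma on the authors' RPKM gave 0.202 and 0.212 at pseudocounts of 1 and 0.1. Apoc3, Apoa4 and Apoa5, which lie in the same cluster (46232933 to 46271919), had 3, 15 and 0 counts over all 6 libraries. Alb, the neighbour of Afp (90460897 to 90476602), had 1 count. These intervals cover counting error only, since amplification copies molecules and no molecular identifier marks the copies.

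Levels per kilobase of annotated exon put the genes on 1 scale. In the PDGFRa-only fraction Apoe had 117 ± 31.0 and Spink3 98.4 ± 11.1 CPM per kilobase, and the libraries of these genes overlapped. Mttp (19.2 ± 5.09), Apom (16.4 ± 10.6) and Ttr (10.99 ± 4.01 CPM per kilobase) followed, and Apom overlapped both its neighbours in this order. Apoa1, Afp and Apob lay below 1 CPM per kilobase, at 0.545 ± 0.771, 0.234 ± 0.140 and 0.178 ± 0.0241. In the PECAM1-only fraction the order changed: Apoe led with 40.7 ± 14.7 CPM per kilobase, Apom followed with 3.66 ± 0.298, and Spink3 (0.837 ± 0.337) and Mttp (0.562 ± 0.0984) were next and overlapped. Apob had 0.0864 ± 0.0108 and Afp 0.0466 ± 0.0658 CPM per kilobase there, and Ttr and Apoa1 had 0 counts.

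**Figure D2:**
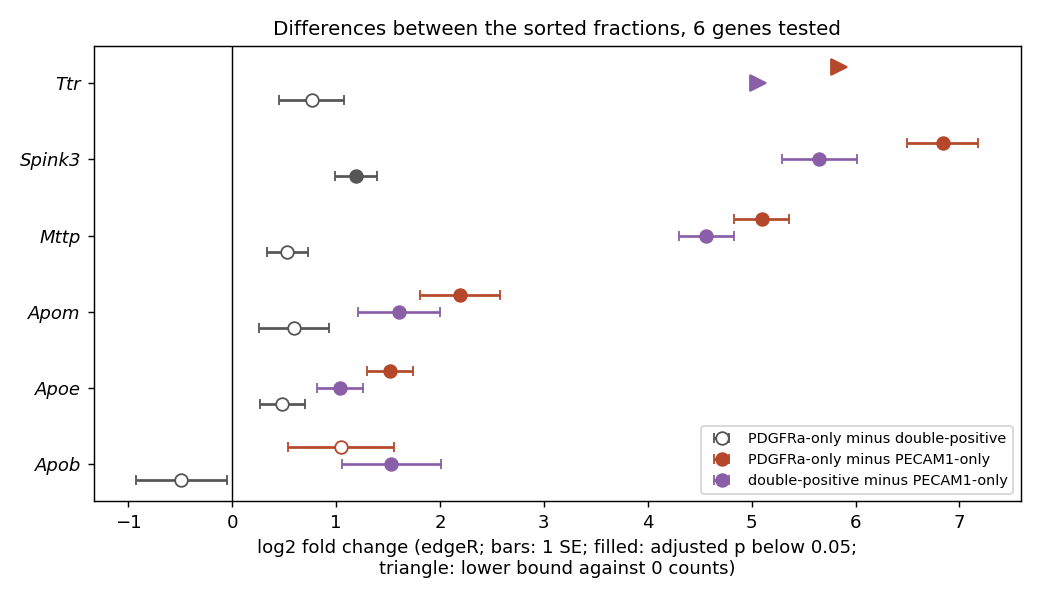
Log2 fold changes between fractions for the 6 genes tested, with 1 SE (edgeR, n = 2 libraries per fraction). Filled symbols passed an adjusted p of 0.05, and triangles are comparisons with 0 counts, which were taken at 3 counts over the fraction. Spink3 differed in all 3 comparisons (6.84, 5.65 and 1.19), whereas Apob passed in double-positive against PECAM1-only cells alone (1.53).

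The double-positive fraction lay between the single-positive fractions for 5 of the 6 tested genes. Relative to the PDGFRa-only mean its level was 43.7% (SD 10.7) for Spink3, 57.8% (SD 0.231) for Ttr, 68.1% (SD 15.8) for Apom, 69.5% (SD 13.4) for Mttp and 71.7% (SD 8.80) for Apoe, and 142% (SD 21.8) for Apob. The SD of Ttr understates its error, since both libraries happened to hold 48 counts. Pdgfra itself stood at 96.0% (SD 4.33). The PECAM1-only level was 0.851% of the PDGFRa-only level for Spink3 and 2.93% for Mttp, but 22.4% for Apom, 34.9% for Apoe and 48.5% for Apob. Differences between genes in these percentages were not tested.

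**Figure D3:**
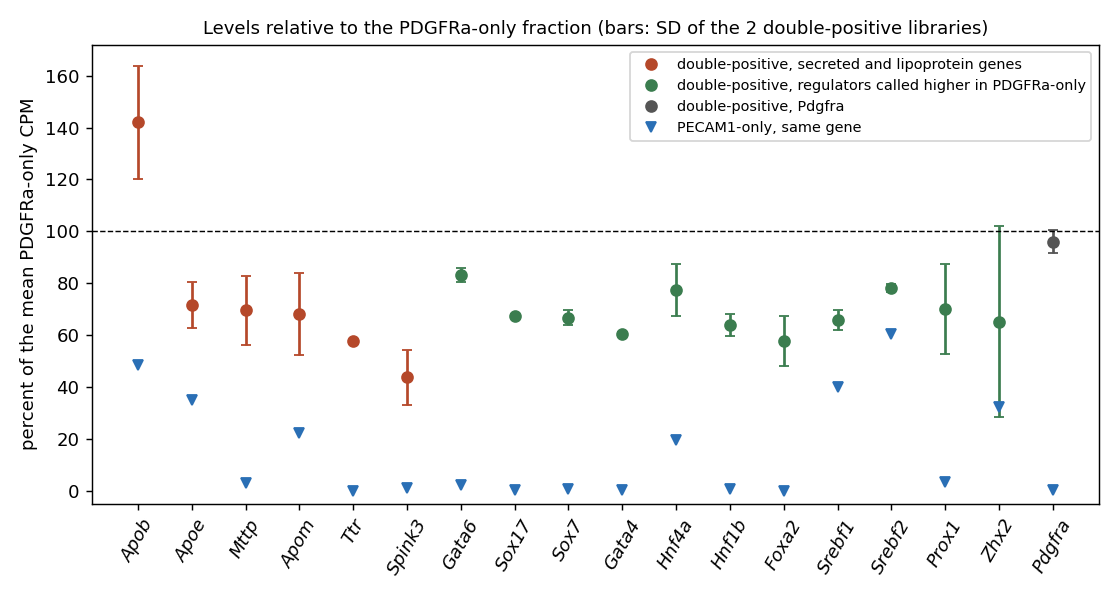
Mean CPM in double-positive (circles, with the SD of 2 libraries) and PECAM1-only cells (triangles) as a percent of the mean PDGFRa-only CPM, for the 6 tested genes, the 11 regulators called higher in PDGFRa-only than in PECAM1-only cells, and Pdgfra. Spink3 is lowest among the 6 genes at 43.7% and Apob highest at 142%, while Pdgfra sits at 96.0%.

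Regulators of visceral endoderm and liver genes, repressors among them, were described from a list of 25, of which 16 were tested. Whether they act on the 8 genes in these cells was not tested. In the PDGFRa-only fraction 11 were higher and 3 lower than in the PECAM1-only fraction, with a median log2 fold change of 1.97, beside 30.1% and 28.8% of all tested genes. In the double-positive fraction 10 were higher and 3 lower (median 2.33), beside 21.8% and 16.4%. The endoderm factor gene Gata4 had 623 ± 107 CPM in PDGFRa-only, 377 ± 3.27 CPM in double-positive and 1.06 ± 0.0556 CPM in PECAM1-only cells (SD, n = 2). Gata6, which specifies primitive endoderm, rose by 5.61 on the log2 scale, Sox7 by 7.70 and Sox17 by 8.45 (edgeR adjusted p = 5.62e-15, 4.32e-15 and 1.19e-14). The genes below were picked after their values were seen. Hnf4a, a nuclear receptor that activates Apob, Mttp and Apoa1 in liver, had 76.7 ± 12.5, 59.2 ± 7.64 and 15.0 ± 1.86 CPM in the PDGFRa-only, double-positive and PECAM1-only fractions (log2 fold change 2.36 between the single-positive fractions, edgeR adjusted p = 3.02e-09). Foxa2, a pioneer factor of endoderm, had 35.6 ± 0.137 and 20.6 ± 3.47 CPM and 0 counts in the PECAM1-only fraction. Taken at 3 counts over the fraction, that was 157-fold below the PDGFRa-only mean, with the error of that mean left out. Other liver factors were at the limit of detection: Cebpa had 9, Onecut1 14, Ppargc1a 1 and Nr1h4 1 count over all 6 libraries. Zbtb20, which represses Afp in the postnatal liver, was lower in PDGFRa-only cells (6.99 ± 1.00 against 46.5 ± 4.15 CPM). Zhx2, the other postnatal repressor of Afp on the list, was higher there (5.18 ± 2.20 against 1.68 ± 0.729 CPM, log2 fold change 1.58, edgeR adjusted p = 0.0108), a call lost without PDGFRa-only replicate 1 (adjusted p = 0.0789), without PECAM1-only replicate 1 (0.110) and with DESeq2 (0.0577). Lower in PDGFRa-only cells was also the nuclear receptor gene Nr5a2 (2 counts against 36.6 ± 0.854 CPM), by a ratio of 202 (exact interval 55.7 to 1680).

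Most of the tested genes listed for lipoprotein assembly and secretion were called higher in PDGFRa-positive than in PECAM1-only cells. The list was chosen with earlier results of these data known, so its counts describe these genes alone. Of 15 listed, 12 were tested. In PDGFRa-only cells 9 were higher and 1 lower than in PECAM1-only cells, with a median log2 fold change of 2.17, beside 30.1% and 28.8% of all tested genes. In double-positive cells the counts were also 9 and 1, with a median of 1.76, beside 21.8% and 16.4%. P4hb, the protein disulphide isomerase that forms the second subunit of the transfer protein beside the Mttp product, had 1425 ± 315 CPM in PDGFRa-only, 1057 ± 75.6 CPM in double-positive and 231 ± 20.6 CPM in PECAM1-only cells (SD, n = 2; log2 fold change 2.63 between the single-positive fractions, edgeR adjusted p = 1.11e-10). Lrpap1, a chaperone of the LDL receptor family, rose by 4.96, Soat1, which esterifies cholesterol, by 4.57, and Surf4, a cargo receptor for lipoprotein export, by 2.94 (edgeR adjusted p = 4.06e-14, 1.41e-11 and 5.36e-12). Picked after its value was seen, Mia2, whose product helps bulky cargo leave the endoplasmic reticulum, had 21.2 ± 10.4 CPM against 1 count in the PECAM1-only fraction, a ratio of 300.0 (exact interval 53.4 to 11900). The gene that was lower, also picked after its value was seen, was Apobec1, the enzyme that edits Apob mRNA, at 0.863 ± 0.366 CPM in PDGFRa-only and 15.1 ± 0.794 CPM in PECAM1-only cells. A1cf, a cofactor of that enzyme, had 0 counts in all libraries.

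Of 19 receptors and remodelling enzymes listed, 17 were tested, and 8 were higher and 4 lower in PDGFRa-only than in PECAM1-only cells (median log2 fold change 0.70), beside 30.1% and 28.8% of all tested genes. In double-positive cells 8 were higher and 3 lower (median 0.56), beside 21.8% and 16.4% of all tested genes. The scavenger receptors of endoderm rose: Cubn (cubilin) by 10.20, Amn, its membrane anchor, with 74.1 ± 12.7 CPM against 2 counts, and Lrp2 (megalin) with 3628 ± 796 CPM against 225 ± 21.3 CPM. Lrp1, an Apoe receptor of many cell types, went the other way, with 6.13 ± 0.732 CPM in PDGFRa-only and 112 ± 22.3 CPM in PECAM1-only cells (log2 fold change -4.17, edgeR adjusted p = 1.00e-11). Of 11 other apolipoprotein genes 3 were tested. Clu (clusterin), a secreted chaperone, rose from 2.19 ± 0.00829 to 778 ± 107 CPM, Apoc1 rose by 2.42, and Apod fell to 0 counts in the PDGFRa-only fraction. Taken at 3 counts over the fraction, Apod was 10.1-fold below its PECAM1-only mean, with the error of that mean left out.

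**Figure D4:**
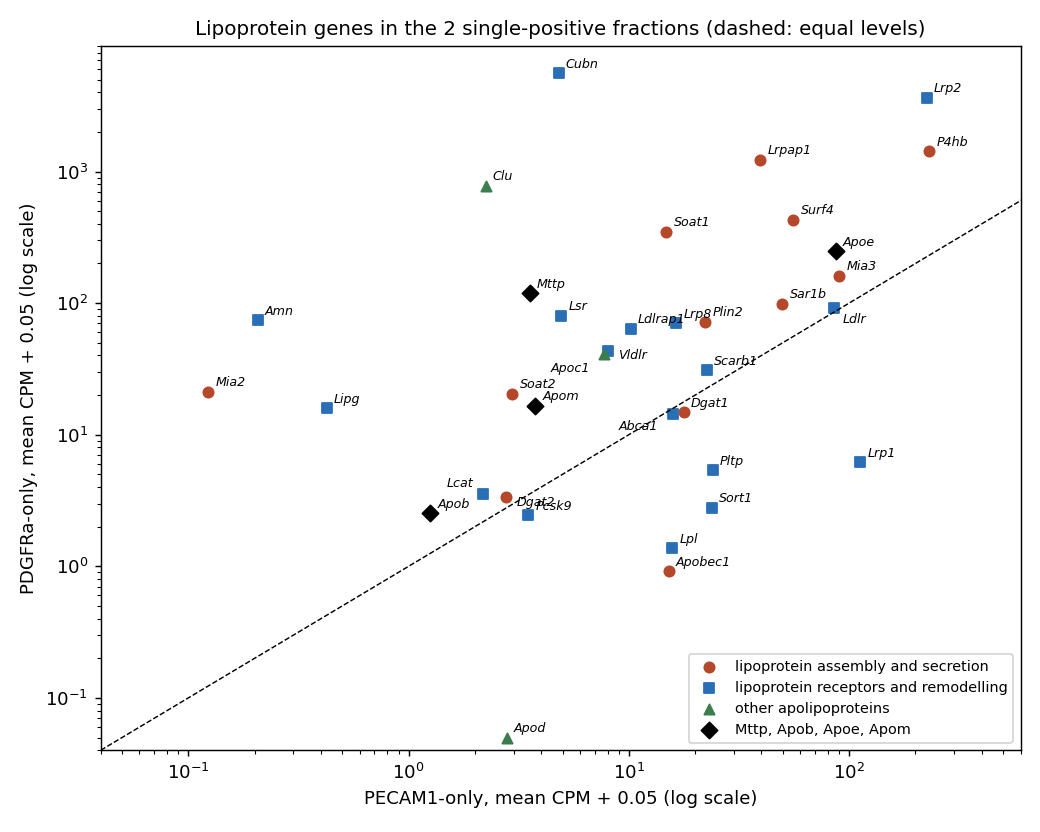
Mean CPM (plus 0.05, log scales) in PDGFRa-only against PECAM1-only cells for the tested genes of 3 lipoprotein lists and for Mttp, Apob, Apoe and Apom; the dashed line marks equal levels. Mttp (119 against 3.49 CPM) and P4hb (1425 against 231 CPM) lie above the line, Apob (2.48 CPM in PDGFRa-only cells) lies close to it, and Apobec1 and Lrp1 lie below.

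Of 9 listed partners of transthyretin (ligands, receptors and enzymes) 4 were tested, and 3 were higher and 1 lower in both PDGFRa-positive fractions than in PECAM1-only cells. Of all tested genes 59.0% were called in the PDGFRa-only and 38.2% in the double-positive comparison, and 4 genes are too few to describe the list. Rbp4, the retinol-binding protein that transthyretin keeps in the circulation, had 28.0 ± 6.73 CPM in PDGFRa-only, 10.5 ± 0.486 CPM in double-positive and 0.818 ± 0.491 CPM in PECAM1-only cells (SD, n = 2). Stra6, the retinol-binding protein receptor, rose by 5.14 (edgeR adjusted p = 4.43e-12). The thyroid hormone receptor gene Thra was lower by a log2 fold change of -2.82 (edgeR adjusted p = 9.21e-06). Of 12 other plasma protein genes 3 were tested: Rbp4 and Fetub, a fetuin gene, were higher, and Cp, which encodes ceruloplasmin, had a log2 fold change of -0.95 (edgeR adjusted p = 0.204). Alb, Trf, Ambp and Hpx had 1, 3, 1 and 7 counts over all 6 libraries, and Itih2 and Igfbp1 had 0. Of 10 other Spink and trypsin genes 1 was tested: Spink10 was lower in PDGFRa-only cells, with 1 count against 4.04 ± 1.28 CPM, a ratio of 45.1 (exact interval 7.77 to 1820). Prss1, the trypsin gene of the pancreas, had 1 count, and Prss2, Prss3, Try4 and Try5 had 0.

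Genes with the most similar profile were found by the Euclidean distance of centred log2 CPM over the 6 libraries, among 10424 other tested genes of at least 5 CPM (10425 for Apob). Nearest to Ttr were Nrg1, Tgfbr2 and Gm15261 (distances 0.407, 0.464 and 0.483). Nearest to Spink3 were Airn, Serpinh1 and Sema6d (0.439, 0.480 and 0.525), and nearest to Mttp were Crim1, Ctsl and Ugt2b34 (0.256, 0.383 and 0.401). Apoe was nearest to Vegfa, Wipi1 and Sord (0.166, 0.240 and 0.265). Apom was nearest to Fzd4, Vldlr and Prdm9 (0.288, 0.385 and 0.407), and Vldlr shared its spread between PDGFRa-only libraries (42.9 ± 27.0 CPM). Apob was nearest to Zbtb10, Mettl7a1 and Nfia (0.315, 0.433 and 0.485). None of the 6 genes was among the nearest of another, but Apob, below 5 CPM, was not a candidate and could not be.

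Promoter sequence is shown for Apoe, the gene highest per kilobase, and for Apob, Afp and Apoa1, the genes with the fewest reads. The RefSeq windows of Apom and Mttp overlap annotated transcripts and are not shown, nor are those of Ttr and Spink3, so the windows allow no comparison of called with uncalled genes. Each window is 200 bases, from -250 to -51 of the RefSeq start (GRCm38.p6), 5′ to 3′ on the gene's strand. It lies at chr7:19699239-19699438 (minus strand) for Apoe, chr12:7977427-7977626 (plus) for Apob, chr5:90490464-90490663 (plus) for Afp and chr9:46228380-46228579 (plus) for Apoa1, and overlaps no annotated GENCODE gene. Capitals mark matches on either strand to the core letters of liver and endoderm factors. For HNF4 these were CAAAGNNCA. For HNF1 they were GTTAAT. For the FOXA factors they were TGTTTNC. For the GATA factors they were GATAAG.
Apoe: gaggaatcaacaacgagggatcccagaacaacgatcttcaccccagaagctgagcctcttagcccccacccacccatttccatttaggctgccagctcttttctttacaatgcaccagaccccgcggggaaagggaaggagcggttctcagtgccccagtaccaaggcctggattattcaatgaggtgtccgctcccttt
Apob: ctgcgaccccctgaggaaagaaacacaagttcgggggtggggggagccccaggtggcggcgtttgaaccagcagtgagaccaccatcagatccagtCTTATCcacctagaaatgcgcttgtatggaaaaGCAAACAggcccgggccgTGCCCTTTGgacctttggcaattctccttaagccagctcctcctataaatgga
Afp: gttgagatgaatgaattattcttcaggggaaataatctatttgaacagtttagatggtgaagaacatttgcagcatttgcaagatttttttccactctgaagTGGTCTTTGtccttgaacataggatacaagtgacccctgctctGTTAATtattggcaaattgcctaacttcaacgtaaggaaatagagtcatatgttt
Apoa1: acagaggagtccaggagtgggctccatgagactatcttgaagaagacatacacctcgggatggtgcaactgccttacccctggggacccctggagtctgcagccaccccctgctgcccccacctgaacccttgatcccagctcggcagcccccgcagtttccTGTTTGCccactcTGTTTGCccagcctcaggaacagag
The Apob window held 1 match each to the GATA, FOXA and HNF4 letters, the Afp window 1 each to HNF4 and HNF1, and the Apoa1 window 2 to FOXA, none of them overlapping. The Apoe window held none of these letters. Of 32817 RefSeq promoter windows of the same length, 4.40% held the HNF4 letters, 5.33% the HNF1, 14.7% the FOXA and 5.50% the GATA letters. A match is a description of the letters and not a bound site, and the lack of one says only that these letters are not in this window.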

How the data were processed

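Per the labels' protocols, RNA was amplified with a commercial kit and sequenced on an Illumina instrument. The authors deposited raw counts per Ensembl gene. Per the submitters' processing notes, cutadapt 1.2.1, Bowtie2 2.1.0, TopHat2 2.0.8b, HTSeq 0.5.4p3 and build GRCm38 were used, with no role or order given. A further deposited table holds RPKM values of 16105 genes, preprocessed in a way not given in the sources used here; all 6 columns share 1 maximum, and it served as an alternative only.

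From the counts, edgeR 4.0.16 (R 4.3.3) fitted a robust quasi-likelihood model with 1 mean per fraction to all 6 libraries (TMM scaling, 3 residual degrees of freedom), with two-sided tests adjusted over 13909 genes at a threshold of 0.05. SE is the log2 fold change divided by the square root of its F statistic. limma 3.58.1 (RPKM), DESeq2 1.42.0, scipy 1.17.1 and Python 3.11.15 were also used, and the fit was tested on simulated data. Exon lengths and positions came from GENCODE M21, matched by gene ID, and promoters from RefSeq (GRCm38.p6). For a symbol on more than 1 row, the row with counts was taken. The 8 genes, the 7 other lists and the markers were chosen with earlier results of these data known. Named beyond the 8 were the up to 4 genes of each list with the smallest p between the single-positive fractions, list genes with few counts, and those said to be picked by value. Each level is the mean ± SD of 2 libraries. The values of 1 list gene are not reported here.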

Additional observations from a re-analysis of the deposited data

How the results depend on the processing

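The alternatives changed the scaling, the test, the count filter, the libraries in the fit and the unit. With no count filter, edgeR adjusted p between PDGFRa-only and PECAM1-only cells fell far at similar estimates for Mttp and Apoe. It was 2.82e-95 in place of 1.13e-12 for Mttp and 3.87e-18 in place of 9.05e-06 for Apoe. That of Apob rose from 0.0860 to 0.126. A pass in that fit is therefore not on the scale of the main fit. Counts of the 6 tested genes called against the PECAM1-only fraction kept within 1.5 times in every alternative. Between PDGFRa-only and double-positive cells the count of 1 called higher was 3 with no count filter, 1 to 4 when each library was left out in turn (4 without PDGFRa-only replicate 1 and 2 without replicate 2), and 0 on RPKM at a pseudocount of 0.1. With the replicate block it was 3, with Apoe (0.46, adjusted p = 0.0425) and Mttp (0.52, adjusted p = 0.0255) added. The library numbers are not known to pair the samples: deviations of same-numbered libraries correlated across genes at 0.120, -0.0268 and 0.170 between fractions. For Apoe, Apom and Mttp, however, replicate 2 was above replicate 1 in every fraction, which Ttr, Apob and Spink3 did not share. The block lowered the SE between PDGFRa-only and PECAM1-only cells from 0.221 to 0.159 for Apoe, 0.385 to 0.312 for Apom and 0.267 to 0.218 for Mttp.

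Over all genes, 826 were called higher and 1624 lower in PDGFRa-only than in double-positive cells. The higher count was 528 with library-size scaling, 211 and 169 on RPKM at pseudocounts of 1 and 0.1, where the lower count was 574 and 744, and 218 to 1235 with each library left out in turn (218 and 306 without double-positive replicate 1 and 2). Against PECAM1-only cells, the 2288 called lower in double-positive cells became 3658 with library-size scaling and 1307 to 2788 with each library left out in turn (1453 or fewer where that library belonged to one of these fractions). Scaling shifted the median of all genes by up to -0.28 (PDGFRa-only against PECAM1-only, library-size scaling), where 37.8% of calls were higher in place of 51.1%, and 41.5% with upper-quartile scaling. Between double-positive and PECAM1-only cells these shares were 57.0%, 39.8% and 43.3%, and between PDGFRa-only and double-positive cells 33.7%, 21.9% and 26.4%, in the order TMM, library-size and upper-quartile scaling.

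Of single values, the step from double-positive to PDGFRa-only cells ranged from -0.33 to 1.10 for Apom and from -0.32 to 0.72 for Mia2 with each library left out, with the lowest value without PDGFRa-only replicate 2. Cp between double-positive and PECAM1-only cells (-0.29) ranged from -0.63 to 0.0248, positive when PECAM1-only replicate 1 (0.0248) or double-positive replicate 2 (0.0075) was missing. Leaving out a library leaves 1 in that fraction, assumed to vary like the others. With few counts for Apob, Afp and Apoa1, depth limits what their levels can show. The cause of these changes was not tested. With a minimum count of 30, Apob gave no value.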
